A study of Arabidopsis thaliana with 6 samples.

Results

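A set of 61 genes stood at least 2.5 log2 units higher in the first of 3 replicates of sorted Arabidopsis thaliana root cells than in the second. They were found among the 13355 genes that the annotation used here named for a probe set of their own, on 6 Affymetrix ATH1 arrays. Of 163 probe sets that met the limits given next, 83 were unnamed and 4 named several genes, and these are not among the 61. The set was selected on measured levels. Sorted replicate 1 had to be at least 6 on the log2 scale, at least 2.5 above sorted replicate 2 and at least 1 above the mean of the meristem arrays, and sorted replicate 2 had to be below 5.5. Peroxidases, expansins, xyloglucan endotransglucosylases (XTH), subtilases, pectin methylesterases, extensins and C2H2 zinc fingers were left out, which removed 15 of the 76 genes that met the limits. The levels in sorted replicates 1 and 2, and those of the meristems against replicate 1, are therefore a description of how the genes were chosen. Sorted replicate 3 was not used by the rule. Each sorted value is a single array, so no test was made on the chosen genes.

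Of the 6 arrays, 3 were of G2/M cells, which a fluorescence-activated sorter (FACS) collected by their CYCB1;1-GFP signal from roots of reporter plants. The other 3 were of complete root meristems, microdissected with a binocular microscope. All plants were of accession Col-0 and were grown on agar plates with Murashige and Skoog salts and sucrose. CYCB1;1 is a B-type cyclin of the G2 and M phases, and its reporter marks any dividing cell of the root, whatever its tissue. The labels give no plant age and do not say how many roots went into a sample. They call the 3 arrays of a group biological replicates, with no word on what separated them.

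A root cell leaves the meristem by ceasing to divide, then elongates, and then takes on the features of its layer, such as a hair or a thickened wall. Loosening and rebuilding of the wall, peroxidases and the balance of reactive oxygen species accompany that passage. UPB1 (UPBEAT1), one of the 61 genes, encodes a bHLH transcription factor known for setting the point of this transition in the Arabidopsis root by repressing peroxidase genes. The G2/M cells of a root are, by contrast, cells that still divide.

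The 3 sorted arrays were not alike. Over all 22746 probe sets, 386 (1.70%) were at least 2.5 log2 higher in sorted replicate 1 than in sorted replicate 2 and 0 were that much lower. Replicate 3 lay between them: 102 probe sets were that much higher in replicate 3 than in replicate 2, 66 were that much higher in replicate 1 than in replicate 3, and 1 was that much higher in replicate 3 than in replicate 1. Pearson's r across probe sets was 0.967 between sorted replicates 1 and 2, 0.988 between 1 and 3, 0.989 between 2 and 3, and 0.996 to 0.997 between meristem arrays. The median level per array lay between 3.61 and 3.79. The lowest value in the table, 2.27, is called the floor here, and 28.2% of all values stood at it. No fold is given against a level within 0.5 of it. All levels are log2 values on the authors' GCRMA scale, and all differences are differences of these values. A probe set's level is not compared with that of another probe set as an amount of RNA. The summed linear levels given for gene lists serve to compare arrays only, and the brightest probe sets weigh most in them.

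**Figure D1:**
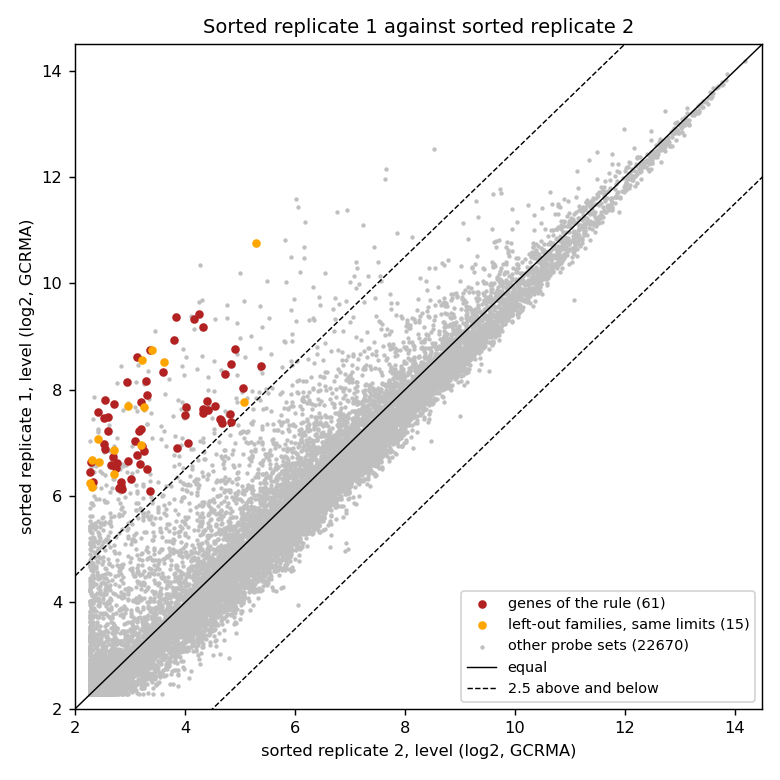
Level of each probe set in sorted replicate 1 (vertical axis, log2) against sorted replicate 2 (horizontal axis, log2), with the 61 genes of the rule in red, the 15 genes of the left-out families in orange and all other probe sets in grey. Points beyond the upper dashed line number 386 and no point lies beyond the lower one.

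The word differentiation, under which these genes were first grouped, could not be checked from most marker genes. Of 142 markers of root hair, epidermal pattern, Casparian strip, suberin, xylem, phenylpropanoid synthesis, phloem, root cap and ion transport, 10 had a named probe set, and none of the 61 genes was among them. The 10 were read for the groups as a whole: with limma, 0 of 10 were called at an adjusted p under 0.05, against 11.5% of all probe sets, and 0 of 10 had an unadjusted p under 0.05. The spread between sorted arrays enters the error of that test, so it can hardly call a gene high in 1 sorted array. The count of 0 is therefore not read as an absence of such transcripts. Of these 10, the root hair expansins EXPA7 and EXPA18 met the limits and were left out with their family. The rule took them for their spread between sorted arrays, so they could hardly be called (SE 1.44 and 1.38). EXPA7 stood at 7.07, 2.42 and 2.69 in sorted replicates 1, 2 and 3, against 2.27, 2.29 and 2.27 in the meristems. EXPA18 stood at 6.67, 2.31 and 2.35 in the sorted cells, against 2.28 in each meristem array. Both were thus well above the floor in a single array of the 6.

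The other measured markers did not have this profile. The root hair marker SCN1, which the rule did not take, nevertheless had the sorts in the same order as the root hair expansins, over a smaller range. Of all arrays its level was highest in the first sort and lowest in the second. SCN1, a regulator of where root hairs start, was at 9.36, 8.43 and 8.57 in the sorted cells, against 8.87, 8.75 and 8.77 in the meristems (difference of group means -0.01, SE 0.28, limma adjusted p = 1). TRY, listed as a marker of epidermal pattern, was at 3.84, 5.01 and 4.51 in the sorted cells. In the meristems it was at 3.56, 3.93 and 3.52 (difference 0.78, SE 0.35, limma adjusted p = 0.273). Its lowest sorted array was thus replicate 1. HCT of the lignin pathway was at 5.24, 5.72 and 5.94 in the sorted cells and 6.12, 6.07 and 6.40 in the meristems (-0.56, SE 0.22, limma adjusted p = 0.219), and its lowest array was again sorted replicate 1. OPS of the phloem was at 2.42, 3.08 and 3.30 in the sorted cells and 2.42 to 2.43 in the meristems (0.51, SE 0.25, limma adjusted p = 0.324). It was the 1 marker called when sorted replicate 1 was left out (0.77, limma adjusted p = 0.0212). In that setting 3383 of all 22746 probe sets were called, and the meristem values of OPS were within 0.5 of the floor.

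The Casparian strip genes SGN3 (-0.62, SE 0.27, limma adjusted p = 0.261) and SGN1 (0.24, SE 0.23, limma adjusted p = 0.613) and the xylem gene IRX10 (0.14, SE 0.08, limma adjusted p = 0.408) were not called either, and LTPG15 was at the floor on all 6 arrays. LTPG15 was listed with the Casparian strip genes. None of the genes listed under suberin, root cap or transport was measured under its own name. The 61 genes are for this reason described below as the genes high in the first sort.

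Over the 61 genes the median level was 7.44, 3.26 and 5.52 in sorted replicates 1, 2 and 3, against 4.24, 4.06 and 4.08 in meristems 1, 2 and 3. In sorted replicate 1 the genes ranged from 6.09 to 9.43, and their median exceeded 83.7% of all probe sets. In sorted replicate 2 they ranged from 2.27 to 5.38 and the median exceeded 47.5% of all probe sets, and 15 of the 61 were within 0.5 of the floor. In the meristems the median exceeded 52.6% to 53.7% of all probe sets. In the first sort these probe sets thus lay in the upper part of the array's values, and in the second sort and the meristems near the middle.

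Sorted replicate 3, which did not enter the rule, lay between replicates 2 and 1 for each of the 61 genes. Since the rule fixed a high value in replicate 1 and a low one in replicate 2, a value in between follows in part from the choice. The genes stood 2.08 higher (median, range 0.27 to 4.00) in replicate 3 than in replicate 2, against a median of 0.00 over all probe sets and -0.06 over the 4935 probe sets whose replicate 2 level was between 2.77 and 5.5. In 58 of 61 genes replicate 3 was at least 1 above replicate 2, which held for 2.55% of all probe sets. Replicate 2 is shared with the rule, so this count is a description.

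Against the meristem mean, replicate 3 was higher by a median of 1.20 (range -0.59 to 4.17), where all probe sets had a median of 0.00. In 34 of 61 genes it was at least 1 above that mean, against 4.15% of all probe sets. The meristem mean is shared with the rule, in which replicate 1 stood at least 1 above it for all 61 genes, as it did for 5.81% of all probe sets. Replicate 3 was above all 3 meristem arrays in 49 genes, within their range in 8 and below them in 4. Over all probe sets it was above them in 29.0% and below them in 24.1%.

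**Figure D2:**
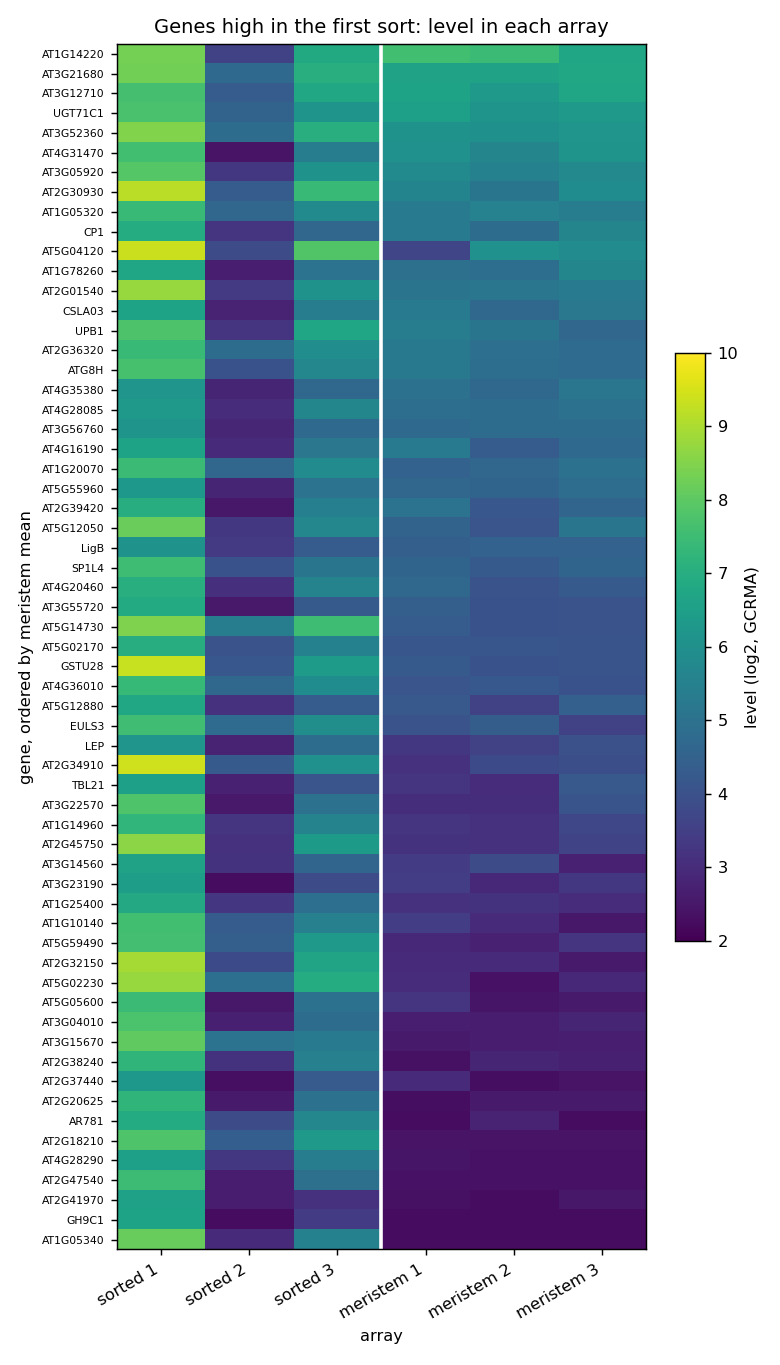
Level (log2, colour scale) of the 61 genes, 1 per line and ordered by meristem mean, in the 3 sorted and the 3 meristem arrays. The first column is the highest of its line in all 61 genes, the second ranges from 2.27 to 5.38, and the third lies between them throughout.

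Among the chosen genes with a symbol, 3 concern the cell wall. GH9C1, an endoglucanase known for a part in root hair growth, stood at 6.64, 2.28 and 3.41 in sorted replicates 1, 2 and 3, against 2.27 in each meristem array. It was near the floor in replicate 2 and in all meristems, and its replicate 3 value lay 25.9% of the way from replicate 2 to replicate 1. CSLA03, of a family of mannan synthases, stood at 6.63, 2.77 and 5.36 in the sorted cells, against 5.27, 4.66 and 5.19 in the meristems. TBL21, of a family that includes enzymes acetylating wall polysaccharides, stood at 6.52, 2.74 and 4.10 in the sorted cells, against 3.23, 3.01 and 4.24 in the meristems.

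These wall genes differed in the meristem. CSLA03 was well detected there, and replicate 3 was 0.32 above the meristem mean while replicate 2 lay below every meristem array. TBL21 had a replicate 3 value inside the meristem range. SP1L4, a relative of the SPIRAL1 protein that binds microtubules and keeps cell growth straight, had 7.53, 4.00 and 5.12 in the sorted cells, against 4.57, 4.25 and 4.57 in the meristems, so that replicate 3 was above the meristem arrays (0.66 over their mean) and replicate 2 below them.

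The transcriptional regulators were UPB1 and LEP. UPB1 stood at 7.76, 3.20 and 6.71 in sorted replicates 1, 2 and 3, against 5.36, 5.12 and 4.63 in the meristems (5.04 ± 0.37, SD, n = 3). Replicate 1 was 23.6-fold above replicate 2. Replicate 3 lay 77.0% of the way up and 1.67 above the meristem mean, and replicate 2 lay below each meristem array, so the sorted values fell on both sides of the meristems.

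LEP (LEAFY PETIOLE), an AP2/ERF transcription factor, stood at 6.16, 2.80 and 4.82 in the sorted cells, against 3.31, 3.56 and 3.99 in the meristems. Its replicate 3 value was 1.20 above the meristem mean, and its replicate 2 value was below every meristem array.

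The 7 class III peroxidases that met the same limits, and were left out by family, were high in replicate 1 and low in replicate 2 by the same choice. They ranged from 6.24 to 10.75 in sorted replicate 1, from 2.27 to 5.29 in replicate 2 and from 2.78 to 8.00 in replicate 3, against a range of 2.27 to 6.30 over the 3 meristem arrays. The other left-out genes were 3 extensins, 2 expansins, 1 pectin methylesterase, XTH18 and the C2H2 zinc finger gene AT3G53600. As a whole the 15 left-out genes had median levels of 7.07, 2.96 and 5.17 in the sorted cells, against 2.61, 2.52 and 2.65 in the meristems.

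Enzymes acting on small molecules were GSTU28, UGT71C1 and LigB. GSTU28, a tau-class glutathione S-transferase that conjugates glutathione to reactive compounds, had the largest difference of the genes with a symbol. It stood at 9.33, 4.16 and 6.40 in sorted replicates 1, 2 and 3, against 4.27, 4.02 and 4.07 in the meristems. Replicate 1 was 36.0-fold above replicate 2, replicate 2 was within the meristem range, and replicate 3 was 2.28 above the meristem mean.

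UGT71C1, a UDP-dependent glycosyltransferase that adds glucose to small phenolic compounds, stood at 7.69, 4.54 and 6.15 in the sorted cells, against 6.50, 6.14 and 6.29 in the meristems. LigB, a dioxygenase that opens aromatic rings, stood at 6.09, 3.37 and 4.34 in the sorted cells, against 4.43, 4.51 and 4.52 in the meristems. For UGT71C1 replicate 3 fell within the meristem range and for LigB just below it, and for both replicate 2 was lower than every meristem array.

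CP1 and ATG8H belong to protein turnover. CP1, a papain-type cysteine proteinase, stood at 6.94, 3.22 and 4.65 in the sorted cells, against 5.26, 4.82 and 5.65 in the meristems. Of all 61 genes it had the lowest replicate 3 value relative to the meristem mean (-0.59). ATG8H, one of the ubiquitin-like ATG8 proteins that coat autophagosomes, stood at 7.67, 4.02 and 5.71 in the sorted cells, against 5.23, 4.89 and 4.81 in the meristems, and its replicate 3 was above all meristem arrays.

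EULS3, a carbohydrate-binding lectin, and AR781 completed the genes with a symbol. EULS3 stood at 7.54, 4.81 and 5.94 in sorted replicates 1, 2 and 3, against 4.06, 4.36 and 3.59 in the meristems. AR781 stood at 6.91, 3.86 and 5.69 in the sorted cells, against 2.27, 2.75 and 2.28 in the meristems. In these 2 genes all 3 sorted arrays lay above all 3 meristem arrays.

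**Figure D3:**
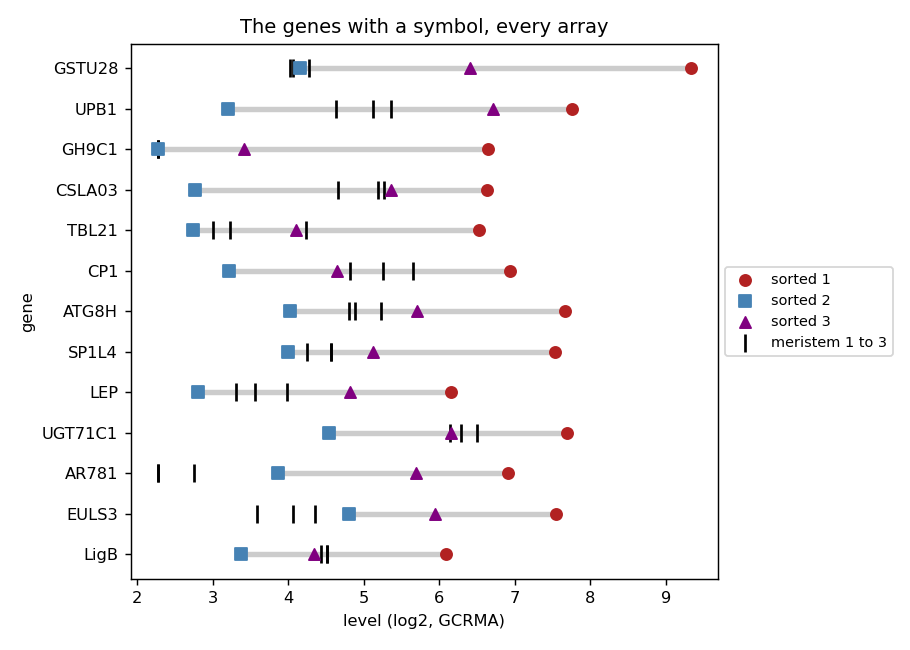
Level (log2) of the 13 genes with a symbol in every array, with sorted replicates 1, 2 and 3 as circle, square and triangle, meristem arrays as bars and a grey line from replicate 2 to replicate 1. For AR781 and EULS3 the square lies above all bars, for GSTU28 it lies within them, for GH9C1 it is at 2.28 beside bars at 2.27, and for the other 9 genes it lies below them.

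The other 48 genes carry a locus code and no symbol in the tables used here, so no role is given for them. The largest difference of all belonged to AT5G04120, at 9.37, 3.83 and 7.83 in sorted replicates 1, 2 and 3, against 3.66, 6.04 and 5.86 in the meristems. It also had the widest meristem spread of the 61 genes (SD 1.33), with meristem replicate 1 more than 2 log2 below the other two, so its meristem level is uncertain. AT2G45750 stood at 8.61, 3.13 and 6.36 in the sorted cells, against 3.16, 3.13 and 3.64 in the meristems, and replicate 2 matched the lowest meristem array.

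AT2G01540 stood at 8.75, 3.36 and 6.09 in the sorted cells, against 5.09, 5.13 and 5.29 in the meristems. AT3G22570 stood at 7.81, 2.54 and 5.02 in the sorted cells, against 3.06, 3.06 and 4.08 in the meristems. AT4G31470 stood at 7.58, 2.41 and 5.38 in the sorted cells, against 6.04, 5.63 and 6.14 in the meristems. In these 3 genes replicate 2 was below all meristem arrays, and in AT4G31470 replicate 3 was below them as well.

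AT1G14220 stood at 8.34, 3.59 and 6.85 in the sorted cells, against 7.58, 7.45 and 6.74 in the meristems, where its probe set had the highest mean of the 61. AT2G30930 stood at 9.17, 4.32 and 7.43 in the sorted cells, against 5.60, 5.12 and 5.88 in the meristems. AT5G12050 stood at 8.17, 3.29 and 5.69 in the sorted cells, against 4.56, 4.12 and 5.10 in the meristems. Replicate 2 was again the lowest of the 6 arrays in each, and replicate 1 the highest.

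AT4G35380 stood at 6.18, 2.83 and 4.66 in the sorted cells, against 5.02, 4.68 and 5.14 in the meristems, and with CP1, AT4G31470 and LigB it is one of the 4 genes whose replicate 3 was below every meristem array. In 32 of the 61 genes replicate 2 was below all 3 meristem arrays, as in 23.5% of all probe sets, and in 24 it was at least 1 below their mean, as it was in 6.31% of all probe sets. The rule capped replicate 2 at 5.5, which favours low values there. These 32 genes had medians of 7.01, 3.17 and 5.42 in sorted replicates 1, 2 and 3, against 5.03, 4.75 and 4.93 in the meristems. Their sorted arrays straddled the meristem level, and replicate 3 was above all meristem arrays in 20 of them, within their range in 8 and below in 4.

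In all, 13 of the 61 genes had a meristem mean within 0.5 of the floor. AT1G05340 stood at 8.15, 2.94 and 5.52 in sorted replicates 1, 2 and 3, against 2.27 in each meristem array. AT2G47540 stood at 7.49, 2.60 and 4.95 in the sorted cells, against 2.40 in each meristem array. AT3G04010 stood at 7.73, 2.70 and 4.82 in the sorted cells, against 2.68, 2.60 and 2.84 in the meristems. In the last 2 genes replicate 2 was also within 0.5 of the floor.

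AT5G05600 likewise had 7.46, 2.53 and 5.03 in the sorted cells, against 3.24, 2.45 and 2.59 in the meristems. AT2G18210 differed, with 7.79, 4.40 and 6.30 in the sorted cells, against 2.41 in each meristem array, so that it stood clear of the meristems in every sort. Replicate 2 was within 0.5 of the floor in 7 of these 13 genes and reached 5.05 in AT3G15670. That gene had 8.04, 5.05 and 5.32 in the sorted cells, against 2.57, 2.65 and 2.67 in the meristems.

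In 18 of the 61 genes all 3 sorted arrays were above all 3 meristem arrays, as they were in 14.4% of all probe sets. The rule had placed replicate 1 above the meristem mean, so nothing is read from this count. In 3 of the 18 (GH9C1, AT2G47540 and AT2G41970) replicate 2 was within 0.5 of the floor, and in 7 it was at least 1 above the meristem mean. AT5G02230 had the largest excess of replicate 3 over the meristem mean (4.17), with 8.76, 4.91 and 6.95 in the sorted cells, against 3.03, 2.39 and 2.92 in the meristems. AT2G32150 had 8.93, 3.80 and 6.68 in the sorted cells, against 2.96, 2.94 and 2.58 in the meristems. AT5G14730 had 8.45, 5.38 and 7.51 in the sorted cells, against 4.34, 4.02 and 4.05 in the meristems. These genes were above the meristems in every sort, but to a different degree.

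AT2G34910, with 9.43, 4.25 and 6.06 in the sorted cells, against 3.13, 3.79 and 3.91 in the meristems, also belongs to these 18 and had the highest level of the 61 in replicate 1. The 18 genes had median levels of 7.55, 4.05 and 5.61 in sorted replicates 1, 2 and 3, against 2.75, 2.75 and 2.62 in the meristems. In the remaining 11 genes replicate 2 was within the meristem range and replicate 3 above it.

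**Figure D4:**
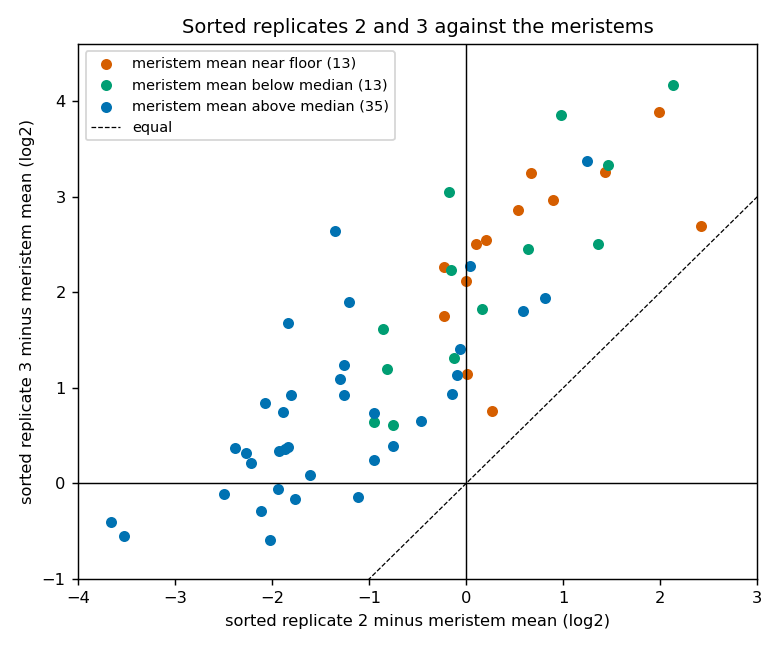
Sorted replicate 3 minus the meristem mean (vertical axis, log2) against sorted replicate 2 minus the meristem mean (horizontal axis, log2) for the 61 genes, coloured by meristem level (near the floor, below or above 3.71, the median of all values). All points lie above the dashed line of equal values, and the 35 genes in blue reach down to -3.67 on the horizontal and -0.59 on the vertical axis.

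The genes differed in how close replicate 3 stood to replicate 1. Its position, as a percentage of the way from replicate 2 up to replicate 1, had a median of 51.1%, with quartiles of 42.1% and 60.1%, and 54 of the 61 genes lay between 30% and 70%. The 3 genes under 30% were AT3G15670 (9.03%), AT2G41970 (12.4%) and GH9C1 (25.9%), all with a meristem mean near the floor. AT2G41970 stood at 6.59, 2.65 and 3.14 in the sorted cells, against 2.37, 2.27 and 2.52 in the meristems. For it, as for EXPA7 and EXPA18 among the left-out genes, the level in replicate 1 was close to being found in that array alone.

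At the other end, 4 genes lay above 70%: AT4G28085 (80.0%), UPB1 (77.0%), AT3G12710 (73.6%) and AT5G04120 (72.2%). AT4G28085 stood at 6.32, 3.02 and 5.66 in the sorted cells, against 4.89, 4.82 and 5.02 in the meristems. AT3G12710 stood at 7.63, 4.33 and 6.76 in the sorted cells, against 6.65, 6.30 and 6.69 in the meristems. All 4 had a meristem mean above 3.71, and the 35 genes of that class had a median position of 57.4%, against 47.1% for the 13 genes below the median and 50.4% for the 13 near the floor. The genes named at either end were chosen after their values were seen.

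The limit of 2.5 did not fall in a gap. The nearest genes inside it were AT2G36320 (2.56), AT4G36010 (2.69) and LigB (2.72), and the nearest outside it that met the other limits were AT4G05150 (2.48), AT5G11070 (2.43) and AT1G27290 (2.43). AT2G36320 stood at 7.39, 4.83 and 5.92 in the sorted cells, against 5.24, 4.91 and 4.79 in the meristems. AT4G05150 stood at 6.83, 4.35 and 5.43 in the sorted cells, against 5.10, 4.88 and 4.85 in the meristems. AT4G36010 stood at 7.37, 4.68 and 5.90 in the sorted cells, against 4.10, 4.19 and 4.00 in the meristems.

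AT5G11070 stood at 6.01, 3.58 and 4.07 in the sorted cells, against 2.27 in each meristem array. AT1G27290 stood at 6.18, 3.75 and 4.56 in the sorted cells, against 3.93, 2.60 and 2.59 in the meristems. The genes on either side of the limit had the same order of sorted arrays. A further 83 probe sets met the limits but are unnamed here, and 4 name several genes. The 83 had medians of 7.22, 3.09 and 5.07 in the sorted cells, against 3.76, 3.56 and 3.96 in the meristems, with a median position of replicate 3 of 50.9%.

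Leaving aside the genes with a symbol, the 15 with the largest differences, those at either end of replicate 3 minus the meristem mean and those next to the limit, the other 28 genes, AT2G41970 and AT3G15670 among them, ranged from 6.13 to 8.48 in replicate 1, from 2.27 to 5.05 in replicate 2 and from 3.14 to 7.01 in replicate 3, with meristem means between 2.39 and 6.66. The 61 genes were spread over all 5 chromosomes: 11, 17, 11, 9 and 12 on chromosomes 1 to 5, with 1 gene not placed. Chromosome 2 held 28.3% of the placed genes and 16.4% of all named genes, and no test of this was made. AT1G05320 and AT1G05340 lay with 1 protein-coding gene between them on chromosome 1, and AT5G02170 and AT5G02230 with 5 between them on chromosome 5. No other members lay within 10 genes of each other. AT1G05320 stood at 7.43, 4.65 and 5.80 in the sorted cells, against 5.31, 5.54 and 5.37 in the meristems, where AT1G05340 was at the floor. AT5G02170 stood at 6.99, 4.06 and 5.53 in the sorted cells, against 4.14, 4.15 and 4.07 in the meristems, with replicate 2 just below them, while AT5G02230 was above them in every sort.

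Other transcripts and controls varied with the sorts too. Of 15 listed G2/M genes 8 had a named probe set, and CYCB1;1 was not among these. All 8 measured G2/M genes, among them the Aurora kinases and the spindle checkpoint gene BUBR1, were called higher in the sorted cells. Of all 22746 probe sets, 1009 were called higher. The cells were sorted by a G2/M reporter and the list was chosen with earlier results known, so nothing is read from the count of 8. The median excess of these genes over the meristem mean was 2.02, 2.60 and 2.32 log2 in sorts 1, 2 and 3. Their summed linear level was 3280, 5040 and 4220 in the sorted arrays, against 839 to 870 in the meristem arrays. The order of the sorts in the 61 genes was set in part by the rule, so no relation is read from comparisons with it here and below. Of the sorts, the first had the lowest and the second the highest level of the G2/M genes, the reverse of that order. BUBR1, for example, stood at 6.66, 7.70 and 7.34 in the sorted cells, against 4.65, 4.31 and 4.55 in the meristems (2.73, SE 0.31, limma adjusted p = 0.0126, or 0.110 with the replicate number as a block). With that block 0 of the 8 were called, and 235 probe sets in all.

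The 8 measured of 20 listed rapid stress genes were all called higher in the sorted cells. That list was also chosen with earlier results known, so nothing is read from the count. The median excess of these stress genes over the meristem mean had the order of the 61 genes, at 5.12, 3.66 and 4.35 log2 in sorts 1, 2 and 3. Their summed linear level was 1840, 1060 and 1290 in the sorted arrays, against 51.5 to 52.6 in the meristem arrays. GRX480, a glutaredoxin, came nearest to the chosen genes, with 8.67, 6.39 and 7.47 in the sorted cells, against 2.79, 2.77 and 2.78 in the meristems. STZ, a zinc finger repressor, and AT1G05575 did not share that order. STZ stood at 7.72, 7.84 and 7.73 in the sorted cells, against 2.30, 2.62 and 2.28 in the meristems. With the replicate block 3 of the 8 stress genes (STZ, CML38 and AT4G29780) were called.

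The summed level of the 3 root hair markers was 893, 355 and 392 in the sorted arrays, against 440 to 478 in the meristem arrays, most of it from SCN1 in every array, since EXPA7 and EXPA18 were close to the floor in all but sorted replicate 1. Poly-A spike-in probe sets had a median of 5.92 in sorted replicate 1 and 2.88 and 2.83 in replicates 2 and 3, against 7.20, 6.71 and 6.43 in the meristems, so they set replicate 1 apart but do not place replicate 3 between the others. The 25S ribosomal RNA probe set stood at 13.10, 12.69 and 12.83 in the sorted cells, against 11.40, 11.29 and 11.32 in the meristems, with the sorts in the same order as in the 61 genes. The difference between 3' and 5' GAPDH probe sets was 1.09, 1.14 and 1.12 in the sorted cells, against 1.06, 1.16 and 1.00 in the meristems, so replicate 3 lay between the others, with replicate 1 lowest and replicate 2 highest. That of the actin probe sets was 1.41, 1.24 and 1.52 in the sorted cells, against 1.55, 1.42 and 1.26 in the meristems, and that of the ubiquitin probe sets was 1.08, 1.17 and 1.20 in the sorted cells, against 0.98, 0.87 and 0.78 in the meristems. For these, replicate 3 was the highest of the sorts. The part of any of these in the levels of the 61 genes was not tested. In RNA pooled from many cells, fewer cells of a type and less RNA per cell cannot be told apart.

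**Figure D5:**
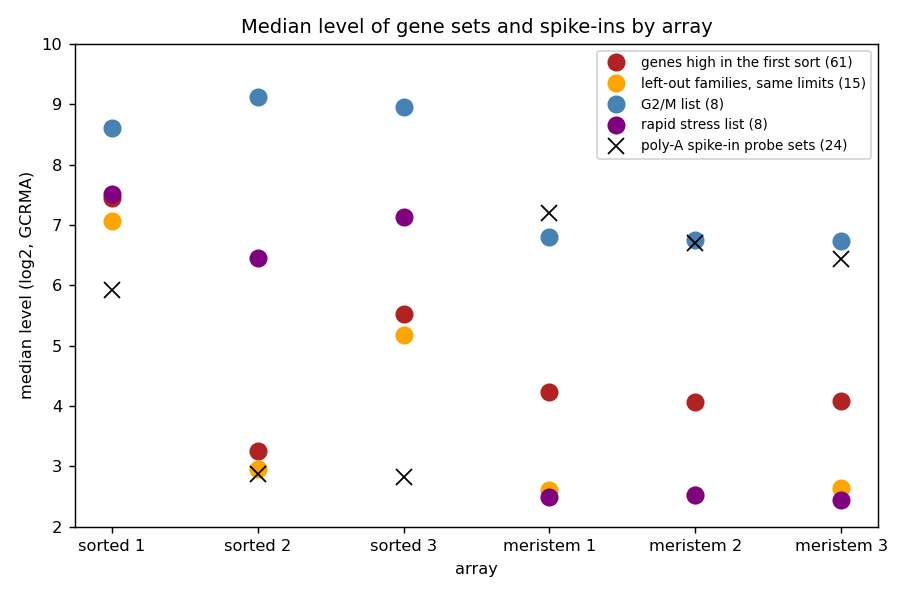
Median level (log2, vertical axis) in each array of the 61 genes, the 15 left-out genes, the 8 G2/M genes, the 8 rapid stress genes and the 24 poly-A spike-in probe sets. Among the sorted arrays the stress genes have replicate 1 highest and replicate 2 lowest, while the G2/M genes have replicate 2 highest. The 61 and the 15 genes also have replicate 1 highest and replicate 2 lowest, but the choice fixed replicate 1 above replicate 2 there.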

How the data were processed

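The deposited table holds log2 expression values, 1 per probe set and array, which the authors made with GCRMA, per the submitters' processing notes (version not given in the sources used here). Of 22810 probe sets, 64 Affymetrix controls were set apart and 22746 kept. The platform annotation named 1 gene for 13513 of these and several for 503, and 8730 are unnamed here. RefSeq names (TAIR10.1) were matched for 13436 probe sets, and for 60 of the 61 genes; 1 kept the platform's name. A gene was read from its probe set with the highest mean, and each of the 61 had 1. No sequence table was used here. The left-out families were recognised from general knowledge of each locus.

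Members, gene lists and limits were chosen with earlier results of these data known. Genes given array by array are the 15 with the largest difference between sorted replicates 1 and 2, the 4 highest and 4 lowest in replicate 3 over the meristem mean, the 3 nearest the limit on each side and, chosen after their values were seen, all with a symbol and the further genes named in the text. The groups were compared with limma 3.58.1 in R 4.3.3 (lmFit, eBayes without trend or robust prior, Benjamini-Hochberg over 22746 probe sets), tested on simulated data; this fit was used for the marker lists and not for the 61 genes. Its p-values rest only on how these 3 and 3 samples varied, which may be technical. Same-numbered sorted and meristem arrays deviated together from their group means (r = 0.12, 0.25 and 0.11 over 11504 probe sets), so the replicate number was also fitted as a block; the pairing comes from the data and not from the labels. Arrays have no read depth, and 3 per group limit the precision.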

Additional observations from a re-analysis of the deposited data

How the results depend on the processing

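The number of genes chosen was 61 and stayed between 47 and 76 under 7 alternatives: other limits on the difference or on replicate 2, a stricter meristem condition of at least 2, the families kept in, and quantile normalization, under which the 61 genes were the same. It was 38 with replicate 1 at least 7 and 94 with no condition on the meristems, both by construction, and 60 to 63 when 1 meristem array was left out of the mean (chosen after seeing the data). The median of replicate 3 minus replicate 2 was 2.08 and lay between 2.02 and 2.22. The median of replicate 3 minus the meristem mean was 1.20 and lay between 1.14 and 1.28, except with the stricter meristem condition (1.8), which by construction removes genes close to their meristem level. The limma calls over all probe sets numbered 2614, with 1249 under a trended robust prior and 235 with the replicate block, and 959 to 3383 when 1 array was left out; among these, 1168 without sorted replicate 3 and 1023, 959 and 1161 without meristem replicates 1, 2 and 3. The cause was not tested. Of the 10 differentiation markers 0 were called, also with the replicate block, and 0 to 1 when 1 array was left out. The sorted values of the 61 genes are single arrays: no replicate error can be given for the difference between 2 sorts.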

Other observations

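The 15 genes left out by family differed among themselves in sorted replicate 3. The C2H2 zinc finger gene AT3G53600 stood at 8.55, 3.21 and 6.86 in sorted replicates 1, 2 and 3, against 2.27, 2.27 and 2.28 in the meristems. XTH18, a xyloglucan endotransglucosylase of the cell wall, stood at 7.76, 5.08 and 6.82 in the sorted cells, against 3.24, 3.43 and 5.30 in the meristems. Both kept a clear level in replicate 3, whereas the pectin methylesterase gene AT5G04960, at 6.17, 2.31 and 2.83 in the sorted cells and 2.31 in each meristem array, and EXPA7 and EXPA18 were close to the floor there. The extensin HRGP1 stood at 6.96, 3.19 and 4.65 in the sorted cells, against 3.35, 3.19 and 3.37 in the meristems.

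Among the peroxidases, AT5G17820 had the highest level of all 76 genes in replicate 1, with 10.75, 5.29 and 8.00 in the sorted cells, against 4.11, 3.67 and 4.69 in the meristems. AT2G39040 stood at 7.68, 3.26 and 6.55 in the sorted cells, against 6.11, 6.30 and 6.05 in the meristems, so its replicate 2 was below all meristem arrays. AT3G49960 stood at 6.24, 2.27 and 2.78 in the sorted cells, against 2.27 in each meristem array. These genes were named after their values were seen.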
